A study of Mus musculus with 6 samples.

Results

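The subunits of respiratory complexes II, III, IV and V that are encoded in the nucleus were measured in E12.5 mouse hearts (E, embryonic day), together with cytochrome c. Members were the genes whose transcript cluster (the set of probes that reads 1 transcript) carried a single symbol, that symbol being Sdha, Sdhb, Sdhc, Sdhd, Cyc1 or Cycs, or starting with Uqcr, Cox4i, Cox5, Cox6, Cox7, Cox8 or Atp5. This gave 48 genes of the 19933 with a single symbol: 4 of complex II, 10 of complex III with cytochrome c, 17 of complex IV and 17 of complex V. 13 of them had several clusters, and the one with the highest mean over the 6 arrays stood for the gene. Cox7c was not among them, since each of its 3 clusters carried a second symbol.

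Samples labelled heart_KO were hearts knockout for β1 integrin, and samples labelled heart_WT were wild-type hearts. There were 3 samples in each group and 1 Affymetrix array per sample, and each sample is called a heart here. β1 integrin, the product of Itgb1, is the β chain shared by most receptors for collagen, laminin and fibronectin. The sources used here do not name the strain, the knockout allele, the cells in which the gene was deleted or the number of hearts behind a sample. The design text calls the 3 hearts of a group biological replicates, and the study looked for early transcript differences at an age ahead of visible dysfunction of the mutant heart.

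The respiratory chain sits in the inner mitochondrial membrane. Complex II oxidises succinate in the tricarboxylic acid cycle and passes the electrons to ubiquinone, complex III hands them to cytochrome c, and complex IV, cytochrome c oxidase, gives them to oxygen. Complexes III and IV pump protons, and complex V, the ATP synthase, lets the protons back through its rotating c-ring to make ATP. The working heart depends on this chain for nearly all of its ATP, while the embryonic heart still leans on glycolysis and its mitochondria mature during gestation. Some complex IV subunits come in a ubiquitous form and a form restricted to heart and skeletal muscle that takes over as striated muscle matures.

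The nuclear genes of the chain are known to share promoter elements, among them sites for NRF1 and for the ETS family, to which the regulator GABPA belongs. Promoters of 36 of the 48 members were found in a RefSeq table (build GRCm38.p6, 250 bases before to 50 after the start) and searched on both strands. The ETS letters CCGGAAG were present in the promoters of 13 of these 36 genes (36.1%), against 12.9% of all protein-coding genes in the table. The NRF1 letters GCGCATGC were present in 8 (22.2%), against 3.93%. The YY1 letters AAGATGG were present in 3 (8.33%), against 7.18%, and the low-oxygen element ACGTG in 12 (33.3%), against 23.2%. For muscle elements the shares were 5.56% against 17.4% for the E box CAGCTG and 0% against 3.27% for the MEF2 consensus, and for the TATA box letters TATAAA 11.1% against 14.8%. These matches describe the letters in the window and do not show binding.

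Promoters are shown, 5′ to 3′, for the members of complexes II, IV and V with the lowest p below (Sdhb, Cox5b and Atp5j2), and for Cox6a1 and the pair Cox8a and Cox8b, whose ubiquitous and muscle forms are compared below. Capitals mark every match to these motifs on either strand. The Sdhb window has an NRF1 and an ETS match, Atp5j2 a YY1 match, Cox6a1 both NRF1 and ETS matches, and Cox5b no match. Cox8a, the ubiquitous form, has a pair of ETS matches, and Cox8b, the muscle form, has muscle E box, low-oxygen and TATA matches and no ETS match.
Sdhb, chr4:140961021-140961320, plus strand: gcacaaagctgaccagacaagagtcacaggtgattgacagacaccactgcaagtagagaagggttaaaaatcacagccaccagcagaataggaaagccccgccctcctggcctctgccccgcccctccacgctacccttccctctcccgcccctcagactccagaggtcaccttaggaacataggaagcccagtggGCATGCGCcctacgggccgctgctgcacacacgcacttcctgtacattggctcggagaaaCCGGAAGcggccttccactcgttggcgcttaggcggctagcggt
Cox5b, chr1:36691237-36691536, plus strand: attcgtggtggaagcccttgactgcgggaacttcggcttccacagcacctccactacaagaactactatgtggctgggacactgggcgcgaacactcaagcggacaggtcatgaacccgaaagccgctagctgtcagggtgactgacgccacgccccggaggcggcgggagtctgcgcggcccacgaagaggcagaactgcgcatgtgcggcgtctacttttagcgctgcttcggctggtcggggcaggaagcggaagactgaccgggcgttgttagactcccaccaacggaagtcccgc
Atp5j2, chr5:145191492-145191791, minus strand: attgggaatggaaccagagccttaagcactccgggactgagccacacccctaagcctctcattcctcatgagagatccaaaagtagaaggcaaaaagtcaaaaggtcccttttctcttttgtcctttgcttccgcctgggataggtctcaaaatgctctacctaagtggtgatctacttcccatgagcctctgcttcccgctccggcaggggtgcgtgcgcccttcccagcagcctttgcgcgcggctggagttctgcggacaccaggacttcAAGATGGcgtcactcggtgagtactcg
Cox6a1, chr5:115348909-115349208, minus strand: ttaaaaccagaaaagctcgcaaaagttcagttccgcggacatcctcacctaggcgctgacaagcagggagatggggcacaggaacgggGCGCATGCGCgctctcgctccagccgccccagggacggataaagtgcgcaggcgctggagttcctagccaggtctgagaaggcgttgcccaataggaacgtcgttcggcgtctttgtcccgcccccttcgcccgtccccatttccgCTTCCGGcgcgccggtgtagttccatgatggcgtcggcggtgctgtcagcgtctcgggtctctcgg
Cox8a, chr19:7217567-7217866, minus strand: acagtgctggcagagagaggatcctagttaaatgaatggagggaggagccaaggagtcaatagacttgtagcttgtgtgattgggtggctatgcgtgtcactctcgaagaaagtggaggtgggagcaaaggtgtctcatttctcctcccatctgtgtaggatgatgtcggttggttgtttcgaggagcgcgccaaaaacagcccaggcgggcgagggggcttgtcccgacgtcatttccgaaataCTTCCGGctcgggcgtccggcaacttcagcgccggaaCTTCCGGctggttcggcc
Cox8b, chr7:140900397-140900696, minus strand: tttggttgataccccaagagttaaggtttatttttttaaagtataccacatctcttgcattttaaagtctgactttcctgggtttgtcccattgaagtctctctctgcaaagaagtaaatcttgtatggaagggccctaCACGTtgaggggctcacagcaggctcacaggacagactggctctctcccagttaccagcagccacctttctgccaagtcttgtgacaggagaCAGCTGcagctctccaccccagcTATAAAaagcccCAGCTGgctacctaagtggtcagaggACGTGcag

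Each array gave a deposited log2 signal for 28767 clusters, with array medians between 6.65 and 6.71, and the number of arrays limits the precision. The targeted gene was lower in the knockout hearts. Itgb1 signal was 11.53, 11.42 and 11.65 in the 3 knockout hearts, against 11.76, 11.80 and 11.78 in the wild-type hearts, a difference of -0.25 ± 0.09 (log2, SE; limma, adjusted p = 0.797; exact two-sided permutation p = 0.1, the smallest that 3 hearts against 3 can give). The probes may lie outside the deleted part, in which case they check nothing about the labels. Cardiomyocyte markers were present in all hearts, with a mean log2 signal of their 17 genes between 12.496 and 12.62 in knockout and between 12.60 and 12.66 in wild-type hearts. No cluster passed an adjusted p of 0.05 (limma over all clusters, Benjamini-Hochberg; 0% called, smallest adjusted p = 0.601), and 1705 had an unadjusted p under 0.05 (5.93%). Knockout heart 1 stood apart from the other 5 in blood-related and low-oxygen genes, so results are also given without it.

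Nearly all subunit genes had a lower mean in the knockout hearts, each by a small amount that did not pass the test. Of 48 members 45 were lower and 3 were higher. Lower means were seen for 53.5% of all clusters and for 57.2% of those at or above the median signal, where 46 members lay. The median difference of the members was -0.11 (log2), against -0.02 over all 19933 genes, and the differences ran from -0.42 for Sdhb to 0.26 for Cox4i2. None passed limma's test over all clusters, with adjusted p from 0.797 to 0.999. At an unadjusted p under 0.05, 2 members were lower, against 2.87% of all clusters, and 0 were higher, against 3.06%. With a variance estimate that follows the signal level and resists outliers, the count of lower members was 10 (20.8%), against 2.96% of all clusters. That share covers clusters of every signal level, and the share among bright clusters in that fit was not counted. With array weights the count was 3 (6.25%), against 6.16%. All 3 knockout hearts lay below all 3 wild-type hearts for 10 members (20.8%). Of all clusters 6.61% did so, and of those at or above the median signal 7.99%. They lay above them for 0 members, against 6.01% of all clusters and 5.76% of the brighter ones. Hearts are mixtures of cells, so fewer mitochondria-rich cells and less of these transcripts per cell cannot be told apart.

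**Figure D1:**
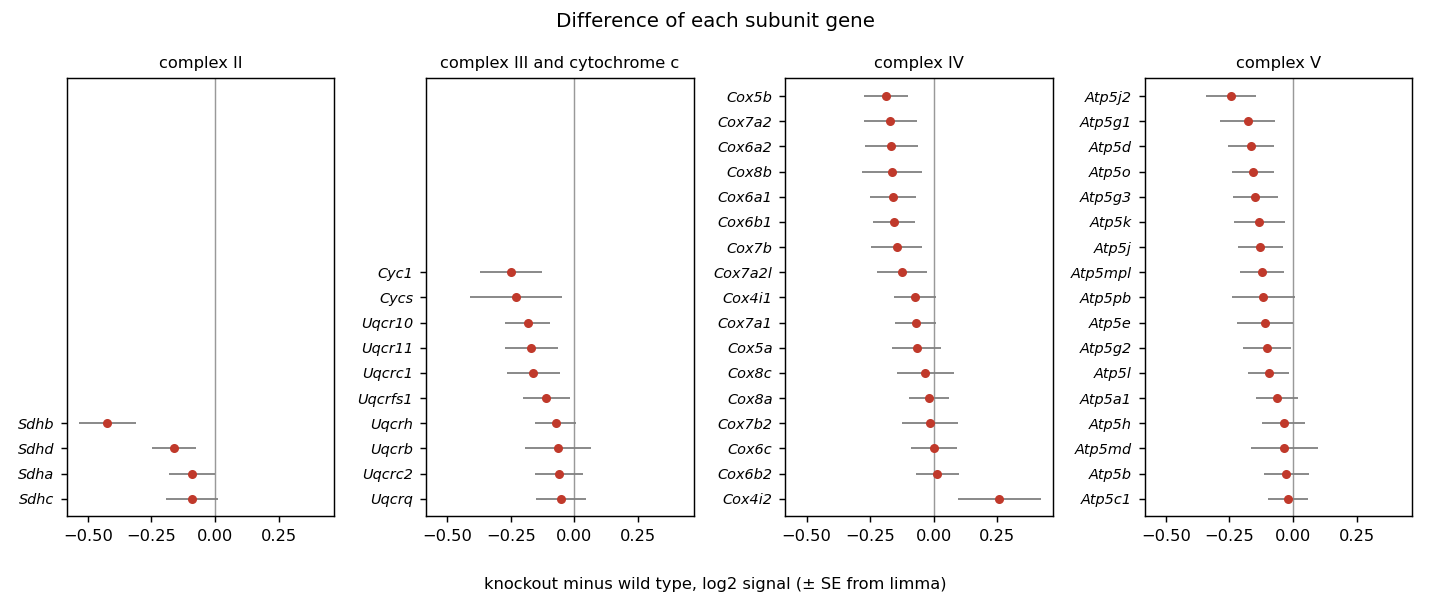
Difference between knockout and wild-type hearts for each of the 48 genes (x axis, log2 signal; points are limma estimates and bars their standard errors), 1 panel per complex. Every gene of complexes II, III and V lies left of 0, Sdhb lies farthest left at -0.42, and Cox4i2 lies farthest right at 0.26.

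The hearts of each group were not alike. Knockout heart 1 held the lowest of the 6 values for 25 of the 48 members, knockout heart 2 for 2 and knockout heart 3 for 14. Among wild-type hearts, heart 1 held the highest value for 26 members and heart 2 for 16, whereas heart 3 did for 2 and lay below the wild-type mean for 43. The mean over the 48 members was 10.68, 10.78 and 10.73 (log2 signal) in knockout hearts 1 to 3, against 10.89, 10.86 and 10.77 in wild-type hearts 1 to 3. Knockout heart 2 therefore lay above wild-type heart 3, and the groups overlapped, with group means of 10.73 ± 0.05 in knockout and 10.84 ± 0.06 in wild-type hearts (SD, n = 3 each). Without knockout heart 1, 42 of 48 members were lower and the median difference was -0.09, and without wild-type heart 3, 44 were lower and it was -0.14.

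All 4 subunits of complex II were lower, with a median difference of -0.13. Their mean log2 signal was 11.13, 11.35 and 11.20 in knockout hearts 1 to 3 and 11.46, 11.46 and 11.34 in wild-type hearts 1 to 3, so that knockout heart 2 reached wild-type heart 3. Sdhb, the iron-sulfur subunit that carries electrons from the flavin to ubiquinone, had the largest difference of the 48. Its log2 signal was 9.98, 10.36 and 10.15 in knockout hearts 1 to 3, against 10.57, 10.65 and 10.53 in wild-type hearts 1 to 3. Every knockout heart lay below every wild-type heart, and the knockout mean was 74.6% of the wild-type level. The difference was -0.42 ± 0.11 (SE; limma, adjusted p = 0.797), and -0.33 without knockout heart 1.

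The other subunits of complex II differed less. Sdhd, a membrane anchor of the complex, had a log2 signal of 11.11, 11.23 and 11.12 in knockout hearts 1 to 3, against 11.34, 11.39 and 11.21 in wild-type hearts 1 to 3, and the groups overlapped only through knockout heart 2 and wild-type heart 3. Its difference was -0.16 ± 0.09. Sdhc, the other anchor, stood at 11.50, 11.68 and 11.42 in the knockout hearts and 11.72, 11.64 and 11.52 in the wild-type hearts, and Sdha, the flavoprotein with the succinate site, at 11.93, 12.15 and 12.10 in the knockout hearts and 12.18, 12.16 and 12.11 in the wild-type hearts. Both overlapped between groups, with a difference of -0.09 each. Sdha differed by -0.03 without knockout heart 1. Sdhc differed by -0.03 without knockout heart 3 and -0.16 without knockout heart 2, by -0.04 without wild-type heart 1 and -0.145 without wild-type heart 3, and by -0.01 with array weights.

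All 10 genes of complex III and cytochrome c were lower, with a median difference of -0.14 that was -0.07 without knockout heart 1, where 9 of 10 were lower. Their mean was 10.65, 10.86 and 10.85 in the knockout hearts and 11.004, 10.93 and 10.83 in the wild-type hearts. Knockout heart 1 held the lowest value for 9 of the 10, and the other knockout hearts lay above wild-type heart 3. Cyc1, cytochrome c1, which passes electrons on to cytochrome c, had a log2 signal of 11.24, 11.64 and 11.56 in knockout hearts 1 to 3, against 11.83, 11.72 and 11.65 in wild-type hearts 1 to 3. The groups did not overlap, knockout heart 1 was far below the rest, and the difference was -0.25 ± 0.12 (limma, adjusted p = 0.797), -0.13 without that heart and -0.15 with array weights. Uqcr10 and Uqcrh, small subunits of which the second is the acidic hinge protein that meets cytochrome c, also did not overlap.

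Uqcr10 stood at 9.75, 9.89 and 9.80 in the knockout hearts and 10.10, 9.96 and 9.94 in the wild-type hearts, a difference of -0.18 ± 0.09. Uqcrh stood at 11.36, 11.38 and 11.38 in the knockout hearts and 11.53, 11.41 and 11.41 in the wild-type hearts, where the highest knockout and the lowest wild-type values nearly touched, and its difference was -0.07 ± 0.08. The core proteins Uqcrc1 and Uqcrc2 differed by -0.16 and -0.06, the Rieske iron-sulfur protein gene Uqcrfs1 by -0.11, Uqcr11 by -0.17 and Uqcrb by -0.07, all with overlap. Without knockout heart 1, Uqcrc1 differed by -0.08, Uqcrc2 by -0.015, Uqcrfs1 by -0.07 and Uqcrb by 0.04. Uqcrq had the smallest difference of the complex, -0.05 ± 0.10, with 9.90, 10.07 and 9.86 in the knockout hearts and 10.10, 9.91 and 9.98 in the wild-type hearts.

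Cycs, somatic cytochrome c, the mobile carrier between complexes III and IV, varied most within a group. Its log2 signal was 10.85, 11.20 and 11.58 in knockout hearts 1 to 3, against 11.51, 11.53 and 11.28 in wild-type hearts 1 to 3. Knockout heart 1 was the lowest and knockout heart 3 the highest of the 6, so the difference of -0.23 ± 0.18 lay within the spread of the knockout hearts, and it was -0.05 without knockout heart 1. Cycs had 3 clusters. A second differed by -0.21, and the last, a much dimmer one, by -0.70 ± 0.22 (limma, adjusted p = 0.797), with 5.92, 6.62 and 6.79 in the knockout and 7.25, 7.19 and 7.01 in the wild-type hearts. The clusters of one gene may read near-identical copies elsewhere in the genome, and which one reads the gene itself cannot be told here.

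**Figure D2:**
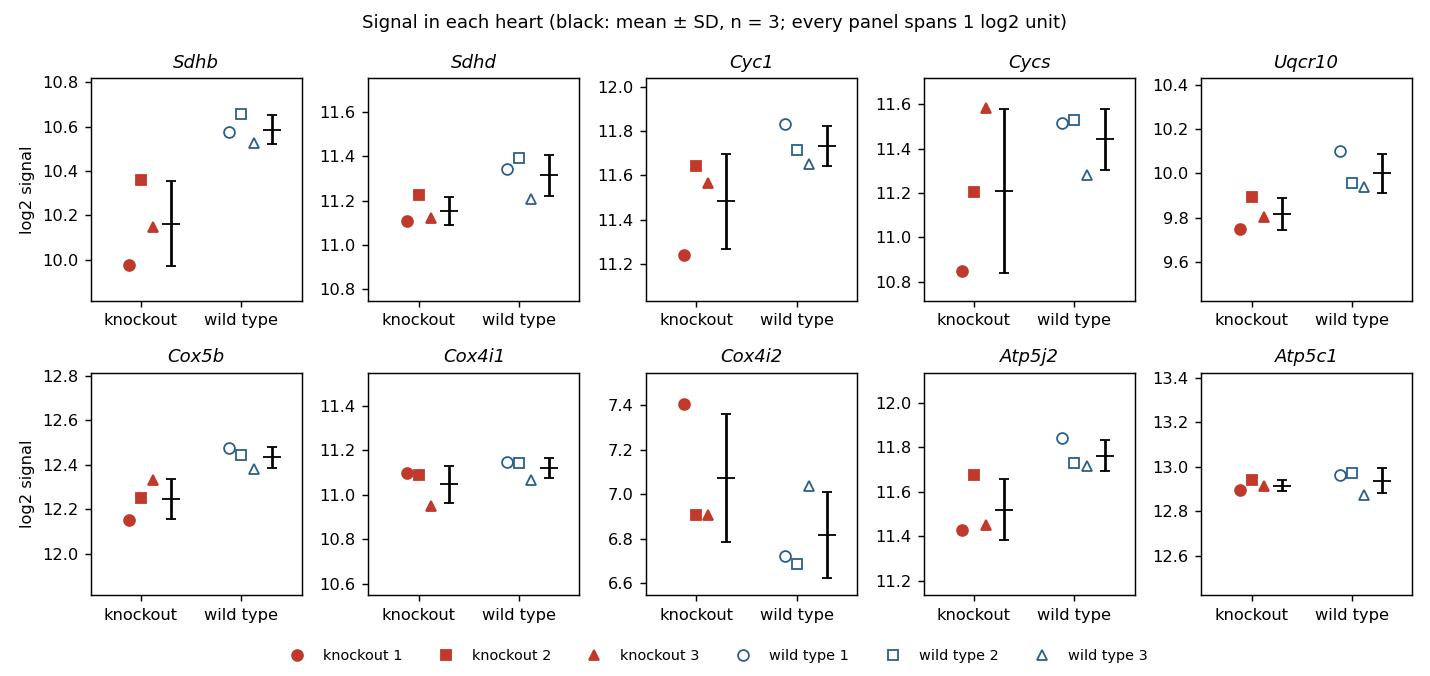
Log2 signal (y axis) of 10 subunit genes in each heart, knockout left and wild type right, with circles, squares and triangles for hearts 1, 2 and 3 and black bars for mean ± SD (n = 3). Knockout values lie wholly below wild-type values for Sdhb, Cyc1, Uqcr10, Cox5b and Atp5j2, and overlap them for Sdhd, Cycs, Cox4i1, Cox4i2 and Atp5c1.

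Of the 17 complex IV genes 14 were lower and 3 higher, with a median difference of -0.07, which was -0.11 without wild-type heart 1 and -0.11 without wild-type heart 3. Their mean was 9.64, 9.64 and 9.59 in the knockout hearts and 9.72, 9.72 and 9.65 in the wild-type hearts. No other complex had a mean without overlap between groups. The ubiquitous forms alone overlapped, with a mean of 10.985 in knockout heart 2 and 10.979 in wild-type heart 3. So did the muscle forms, at 9.83 and 9.78 in those hearts. The dim tissue-restricted forms Cox4i2, Cox6b2, Cox7b2 and Cox8c went the other way between those hearts, at 6.12 and 6.24. Cox5b, a peripheral subunit on the matrix side, had a log2 signal of 12.15, 12.25 and 12.33 in knockout hearts 1 to 3, against 12.47, 12.45 and 12.38 in wild-type hearts 1 to 3. The groups did not overlap, the difference was -0.19 ± 0.09 (limma, adjusted p = 0.797) and the second Cox5b cluster differed by -0.16. Cox6b1, which faces the intermembrane space where cytochrome c docks, did not overlap either, at 11.41, 11.46 and 11.36 in the knockout hearts and 11.59, 11.62 and 11.49 in the wild-type hearts. Its difference was -0.16 ± 0.08. The remaining ubiquitous genes overlapped. Cox7b differed by -0.15, Cox7a2l, which helps to join complexes III and IV into supercomplexes, by -0.12, Cox5a by -0.07 and Cox6c by 0.001. Cox7a2l and Cox7b differed less, by -0.05 and -0.07, in their second clusters. Cox5a differed by -0.03 without knockout heart 1. The 3 clusters of Cox7c, which the rule left out, differed by -0.008, -0.001 and -0.000.

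The gene pair for subunit IV went opposite ways by their means. Cox4i1, the ubiquitous form, had a log2 signal of 11.10, 11.09 and 10.95 in knockout hearts 1 to 3. In wild-type hearts 1 to 3 it was 11.15, 11.14 and 11.07, with overlap. The difference of -0.07 ± 0.08 was -0.025 without knockout heart 3 and -0.099 without knockout heart 1. Cox4i2, the form known from lung and from cells at low oxygen, stood at 7.41, 6.91 and 6.91 in the knockout hearts and 6.72, 6.69 and 7.04 in the wild-type hearts. Knockout heart 1 was the highest of the 6, and wild-type heart 3 lay above the other 2 knockout hearts. The difference of 0.26 ± 0.16 (limma, adjusted p = 0.801) was 0.09 without knockout heart 1. The forms known mainly from testis, Cox6b2, Cox7b2 and Cox8c, differed by 0.01, -0.01 and -0.03, or 0.004, 0.012 and -0.10 without knockout heart 1. The signals of Cox7b2 and Cox8c were below that of the middle cluster of the array, unlike those of the other 46 members, and differences of dim clusters are known to be compressed. Over the ubiquitous forms of complex IV the median difference was -0.14, with 9 of 10 lower, and over the muscle forms it was -0.16, with 3 of 3 lower.

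Muscle forms were then set against their ubiquitous partners in 3 pairs, by the change of the log2 difference between the forms from heart to heart. None of the 3 pairs passed the test. For subunit VIa, Cox6a2, the muscle form, stood at 10.33, 10.48 and 10.20 in the knockout hearts and 10.62, 10.43 and 10.46 in the wild-type hearts, and Cox6a1, the ubiquitous form, at 10.80, 10.88 and 10.72 in the knockout hearts and 11.03, 10.99 and 10.86 in the wild-type hearts. The differences were -0.17 ± 0.10 and -0.16 ± 0.09, and the groups overlapped for both forms. Cox6a2 differed by -0.10 without knockout heart 3, -0.11 without wild-type heart 1 and -0.07 with array weights. It differed by -0.24 without knockout heart 2 and -0.20 without wild-type heart 2. The muscle form shifted by -0.005 ± 0.06 (log2, SE over hearts) relative to its partner (exact two-sided permutation p = 0.9, also 0.9 adjusted over the 3 pairs).

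For subunit VIIa, Cox7a1, the muscle form, stood at 10.29, 10.33 and 10.37 in the knockout hearts and 10.45, 10.44 and 10.31 in the wild-type hearts, and Cox7a2, the ubiquitous form, at 9.94, 10.17 and 10.13 in the knockout hearts and 10.32, 10.33 and 10.10 in the wild-type hearts. The muscle form was lower by less, at -0.07 against -0.17, and knockout heart 1 held the lowest value of both. Cox7a2 differed by -0.10 without that heart, and Cox7a1 by -0.05 without wild-type heart 1 and -0.11 without wild-type heart 3. The shift of the muscle form was 0.10 ± 0.06 (exact permutation p = 0.2, adjusted 0.45), and 0.05 without knockout heart 1. For subunit VIII, Cox8b, the muscle form, stood at 8.68, 8.69 and 8.49 in the knockout hearts and 8.93, 8.85 and 8.57 in the wild-type hearts, and Cox8a, the ubiquitous form, at 10.70, 10.66 and 10.68 in the knockout hearts and 10.71, 10.74 and 10.65 in the wild-type hearts. Cox8b differed by -0.16 ± 0.12 and Cox8a by -0.02 ± 0.08, with overlap in both. Cox8b differed by -0.10 without knockout heart 3, -0.09 without wild-type heart 1 and -0.27 without wild-type heart 3. The shift was -0.14 ± 0.11 (exact permutation p = 0.3, adjusted 0.45), -0.08 without knockout heart 3, -0.08 without wild-type heart 1 and -0.22 without wild-type heart 3. The smallest p that 3 hearts against 3 allow is 0.1, so these tests could not reach 0.05.

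**Figure D3:**
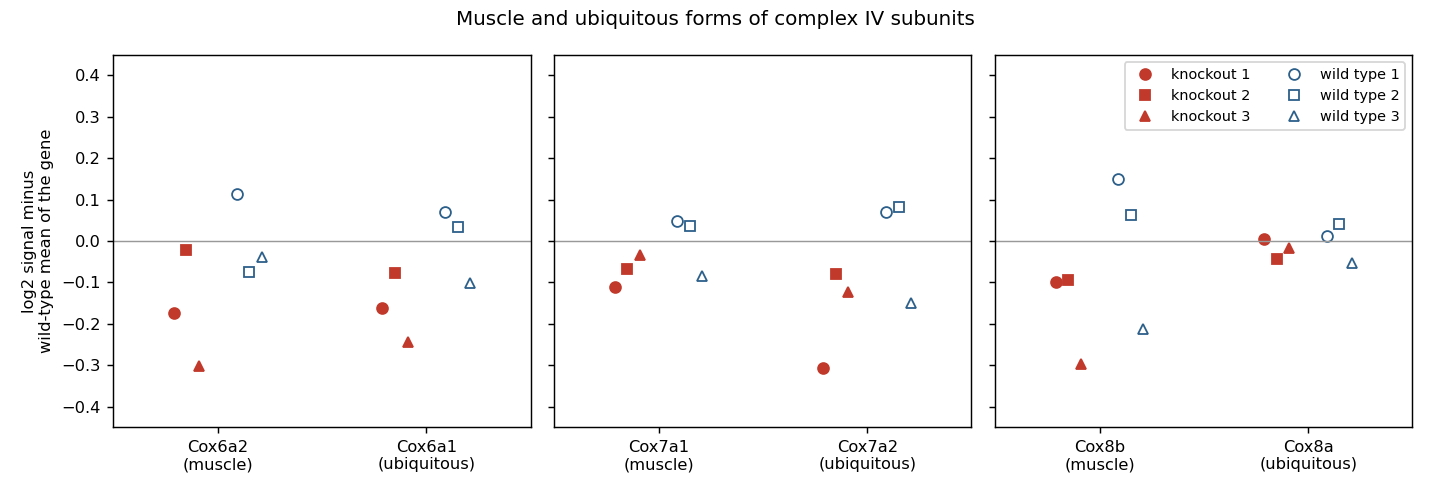
Log2 signal minus the wild-type mean of the gene (y axis) for the muscle and the ubiquitous form of 3 complex IV subunits, with filled red symbols for knockout and open blue symbols for wild-type hearts, and circles, squares and triangles for hearts 1, 2 and 3. The forms of subunit VIa were lower by about the same amount (-0.17 and -0.16), the forms of subunit VIIa by -0.07 and -0.17, and the forms of subunit VIII by -0.16 and -0.02.

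All 17 genes of complex V were lower, with a median difference of -0.12 (-0.08 without wild-type heart 1, -0.16 without knockout heart 2). Their mean was 11.63, 11.75 and 11.70 in the knockout hearts and 11.86, 11.83 and 11.72 in the wild-type hearts, with overlap through knockout heart 2 and wild-type heart 3. By part of the enzyme, the median was -0.06 for the 5 subunits of the catalytic F1 head and its central stalk, -0.15 for the 3 c-ring genes, -0.12 for the 4 subunits of the peripheral stalk and -0.12 for the 5 small membrane subunits. Without knockout heart 1 those medians were -0.03, -0.09, -0.05 and -0.11. Atp5j2, which encodes the small membrane subunit f, had the largest difference. Its log2 signal was 11.43, 11.68 and 11.45 in knockout hearts 1 to 3, against 11.84, 11.73 and 11.72 in wild-type hearts 1 to 3. The groups did not overlap, knockout hearts 1 and 3 were the lowest, and the difference was -0.24 ± 0.10 (limma, adjusted p = 0.797), -0.20 without knockout heart 1 and -0.14 with array weights.

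In the F1 head, Atp5d, the δ subunit of the central stalk, did not overlap, at 12.07, 12.22 and 12.27 in the knockout hearts and 12.40, 12.34 and 12.30 in the wild-type hearts, and differed by -0.17 ± 0.09. The α and β subunit genes Atp5a1 and Atp5b, which form the catalytic ring, differed by -0.06 and -0.03, and Atp5e, the ε subunit, by -0.11. Without knockout heart 1, Atp5d differed by -0.105, Atp5a1 by -0.03 and Atp5b by -0.003. Atp5c1, the γ subunit that turns inside the ring, had the smallest difference of the complex at -0.02 ± 0.08, with 12.89, 12.94 and 12.91 in the knockout hearts and 12.96, 12.97 and 12.87 in the wild-type hearts. Its knockout values all lay between the lowest and the highest wild-type value.

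In the peripheral stalk, which holds the head still, Atp5o and Atp5j did not overlap. Atp5o, the subunit that confers oligomycin sensitivity, stood at 11.22, 11.30 and 11.23 in the knockout hearts and 11.44, 11.47 and 11.32 in the wild-type hearts, a difference of -0.16 ± 0.08. Atp5j, coupling factor 6, stood at 12.02, 12.22 and 12.20 in the knockout hearts and 12.30, 12.27 and 12.25 in the wild-type hearts, a difference of -0.13 ± 0.09, or -0.07 without knockout heart 1. The other stalk genes, Atp5pb and Atp5h, differed by -0.12 and -0.04, and the 2 further clusters of Atp5h were higher, by 0.03 and 0.07. Atp5pb differed by -0.03 and Atp5h by -0.01 without knockout heart 1. The c-ring genes encode the same mature protein with different import signals. Atp5g1 differed by -0.18, Atp5g3 by -0.15 and Atp5g2 by -0.10, all with overlap. Without knockout heart 1, Atp5g1 differed by -0.09, Atp5g3 by -0.09 and Atp5g2 by -0.146. Among the small membrane subunits, Atp5k differed by -0.13, Atp5mpl by -0.12, Atp5l by -0.10 and Atp5md by -0.03, which was 0.035 without knockout heart 1. All 6 clusters of Atp5l were lower, by 0.05 to 0.15. Of the 13 members with several clusters, 11 had all their clusters on one side of 0, and the exceptions were Atp5h and Cox6c.

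Other nuclear genes of mitochondrial respiration were lower in the same hearts. Of 30 measured assembly factors, of 34 listed, 30 were lower, with a median difference of -0.15. At an unadjusted p under 0.05, 1 of these 30 was lower, as were 4 of 36 complex I subunits and 7 of 77 mitochondrial ribosomal proteins, against 2.87% of all clusters. The assembly factor was Uqcc3, an assembly factor of complex III, at -0.22 ± 0.09. Sco1, which delivers copper to complex IV, and Taco1, which activates translation of its core subunit, followed at -0.32 ± 0.16 and -0.28 ± 0.14, or -0.14 and -0.13 without knockout heart 1. Complex I subunits were lower for 33 of 36 with a median of -0.12, mitochondrial ribosomal proteins for 74 of 77 with a median of -0.15, and enzymes of the tricarboxylic acid cycle for 11 of 12 with a median of -0.09. For the cycle enzymes it was -0.04 without knockout heart 1, and for the ribosomal proteins -0.08. No test compared the 48 members with these lists. All 3 knockout hearts lay below all 3 wild-type hearts for 22.2% of the complex I subunits and 24.7% of the mitochondrial ribosomal proteins. They did so for 36.7% of the assembly factors and 8.33% of the cycle enzymes, beside 20.8% of the members and 6.61% of all clusters. For none of the lists did a gene pass the test over all clusters.

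ATP and phosphate carriers and mitochondrial creatine kinase were lower for 7 of 8 genes, with a median of -0.10. Ckmt2, the sarcomeric mitochondrial creatine kinase that hands ATP on as phosphocreatine, stood at 6.35, 6.13 and 6.11 in the knockout hearts and 6.68, 6.54 and 6.36 in the wild-type hearts, and the highest knockout and the lowest wild-type values nearly met. Its difference was -0.33 ± 0.12 (limma, adjusted p = 0.797), and its mean signal in both groups lay below that of the middle cluster of the array. Slc25a5, an exchanger of ADP and ATP, differed by -0.17 ± 0.09, and Slc25a3, the phosphate carrier, by -0.10 ± 0.08, both without overlap. Regulators of mitochondrial gene expression had a median of -0.04, or -0.01 without knockout heart 1, with 13 of 16 lower. The nuclear receptor gene Esrra, an activator of respiratory genes, had the lowest p of them, at 8.40, 8.50 and 8.19 in the knockout hearts and 8.68, 8.54 and 8.58 in the wild-type hearts, a difference of -0.24 ± 0.10. The mitochondrial DNA polymerase gene Polg and the mitochondrial RNA polymerase gene Polrmt differed by -0.15 and -0.13. Of 6 subunits of complexes III, IV and V encoded in mitochondrial DNA, 1 had a cluster with a single symbol, COX2, subunit II of complex IV, at 13.42, 13.37 and 13.53 in the knockout hearts and 13.52, 13.53 and 13.39 in the wild-type hearts. It overlapped fully, with a difference of -0.04 ± 0.09.

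Markers of cells and of low oxygen were read in the same hearts. The cardiomyocyte list was lower for 13 of 17 genes, with a median difference of -0.09 (-0.04 without knockout heart 1) and means of 12.496, 12.62 and 12.57 in knockout hearts 1 to 3, against 12.66, 12.64 and 12.60 in wild-type hearts 1 to 3. Knockout heart 1 was lowest and knockout heart 2 lay within the wild-type range, much as for the subunit genes. The 7 low-oxygen genes, Cox4i2 among them, were all higher, with means of 9.55, 8.65 and 8.68 in knockout hearts against 8.52, 8.44 and 8.48 in wild-type hearts. Knockout heart 1 was far above the rest, and their median difference of 0.33 was 0.09 without it. Of these, the prolyl hydroxylase gene Egln3 differed by 1.31 ± 0.46, the mitophagy receptor gene Bnip3 by 0.69 ± 0.29 and Ndufa4l2 by 0.48 ± 0.22. Without that heart these differences were 0.71, 0.31 and 0.23. Pdk1 and Lonp1, 2 of the 7, turned lower without it, at -0.05 and -0.03.

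The erythroid list, 8 of 12 genes measured and all 8 higher, had a mean of 10.70 in knockout heart 1, against 9.29 and 9.47 in knockout hearts 2 and 3 and 9.18 to 9.70 in the wild-type hearts. The platelet list, 5 of 7 genes measured and all 5 higher, stood at 9.12 in knockout heart 1, against 7.16 and 6.95 in knockout hearts 2 and 3 and 6.81 to 6.96 in the wild-type hearts. No array value is 0, so a signal in a heart does not by itself show that a gene is expressed there. The means of complexes II, III and V were lowest in the heart in which blood markers and low-oxygen genes were highest. That match rested on knockout heart 1 alone, and the part of either in the lower subunit signal was not tested. In wild-type hearts 1 to 3 the erythroid mean was 9.70, 9.63 and 9.18, and the platelet mean 6.81, 6.96 and 6.94. The mean of the 48 members was 10.89, 10.86 and 10.77 there, so wild-type heart 3 was lowest in both erythroid and subunit signal. Without knockout heart 1 the median difference was -0.09 for the 48 members, -0.10 for the erythroid list and 0.17 for the platelet list.

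**Figure D4:**
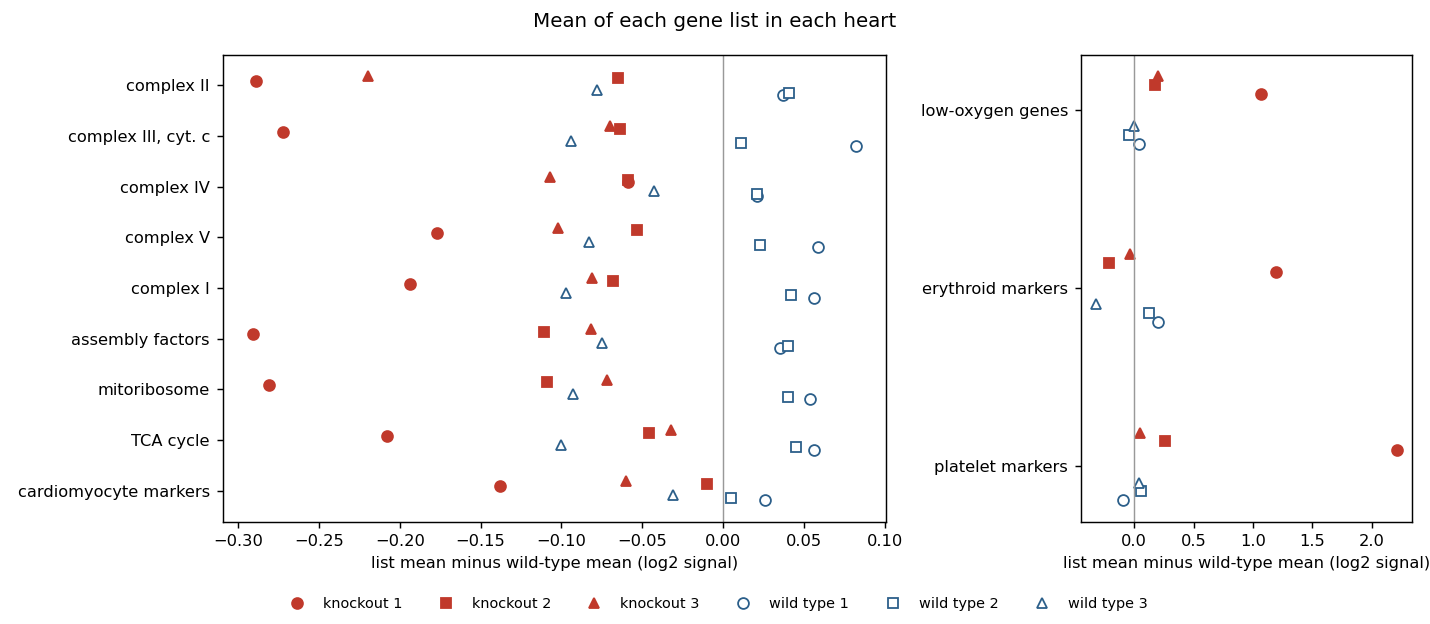
Mean log2 signal of each gene list in each heart minus its wild-type mean (x axis), with filled red symbols for knockout and open blue symbols for wild-type hearts, and circles, squares and triangles for hearts 1, 2 and 3; the scales of the panels differ. Knockout heart 1 lies lowest in 8 of the 9 lists on the left, complex IV being the exception, and far highest in the 3 on the right, while wild-type heart 3 lies lowest of the wild-type hearts in the 9 lists on the left.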

How the data were processed

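Biotin-labelled RNA of 3 knockout and 3 wild-type heart samples, taken up in Trizol per the labels' protocols, was read on 1 Affymetrix array per sample. The authors used RMA, per the submitters' processing notes, a method that corrects background, gives arrays a common distribution and summarises probes. They deposited log2 values, which range from 1.85 to 14.91. The sources used here do not name the RMA version, the annotation release or any filter.

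Symbols came from the platform annotation: 21776 of 28767 clusters had 1 symbol, 1618 several and 5373 none. Of the first, 21686 matched a mouse gene table (GRCm38.p6) by Entrez identifier, which changed no member. Groups were compared with limma 3.58.1 in R 4.3.3 (lmFit and eBayes, no filter, no covariate, two-sided). Benjamini-Hochberg adjustment ran over all clusters, with a threshold of 0.05. The fit was run on simulated data whose planted changes were larger than any member difference here. That run does not show how well differences of the size seen here are found. Differences are knockout minus wild type. Isoform pairs took an exact permutation test, which can give no p under 0.1.

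Members, lists and motifs were chosen with earlier results of these data known, and no list was tested as a set. Genes with values in each heart were those at an unadjusted p under 0.05, the extreme members of each complex, the isoform pairs, Cox4i1, Cox4i2, Sdhb and Cox5b. The members without overlap, Sdha, Sdhd and Cycs were added after their values were seen. The other lists gave up to 3 genes by lowest p. Alternatives were a filter on dim clusters, the mean of a gene's clusters, 3 normalizations, array weights, a replicate block, a variance trended and robust to outliers, and leaving out each heart.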

Additional observations from a re-analysis of the deposited data

How the results depend on the processing

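Leaving out 1 heart at a time, 42 to 46 of the 48 members were lower, and their median difference ran from -0.15 to -0.09. Between 1 and 4 members were lower at an unadjusted p under 0.05, where 1.68% to 4.22% of all clusters were, and 0 to 1 clusters passed the test over the whole table. That 1 cluster, AI506816, which is no member and was named after its value was seen, passed without knockout heart 1 (limma, adjusted p = 0.00112). The count of members at an unadjusted p under 0.05 was 2 (2.87% of all clusters), but 10 with a trended robust variance (2.96% of all clusters in that fit) and 1 with a replicate block (1.94%). The median of complex IV was -0.12 in place of -0.07 with only clusters at or above the median level, which drops Cox7b2 and Cox8c, and -0.113 to -0.061 with 1 heart left out. The shift of Cox6a2 relative to Cox6a1 turned to 0.053 with array weights and ran from -0.059 to 0.026 with 1 heart left out. Uqcrq stood at 0.037 with array weights, which gave knockout heart 1 the lowest weight of 0.35. Cox8a stood at 0.002 without wild-type heart 2 and ran from -0.046 to that value. Why these values moved was not tested. Over the settings run, with the mean of a gene's clusters not counted, 39 of the 48 members kept their sign. The other 9 were Uqcrb, Uqcrq, Cox6b2, Cox6c, Cox7b2, Cox8a, Cox8c, Atp5b and Atp5md. Atp5h is counted among the 39, although its further clusters were higher, by 0.029 and 0.073, against -0.036 for the one used. The median of each complex kept its direction, and no setting brought a member past the test over all clusters. Quantile normalization, cyclic loess and centring on array medians left 45 to 46 members lower. Deviations of hearts with the same replicate number correlated at -0.04, -0.03 and -0.06, and those with different numbers at -0.03 to 0.08. No pairing by replicate number was seen over all clusters, but these values cannot exclude one.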

Other observations

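All 9 macrophage markers were higher in the knockout, with list means of 6.85, 7.06 and 6.97 in knockout hearts 1 to 3, against 6.77, 6.702 and 6.69 in wild-type hearts 1 to 3, and knockout heart 1 was the lowest of the knockout hearts. Of 7 measured liver genes 6 were higher, with list means of 5.84, 6.07 and 6.26 in knockout and 5.43, 5.45 and 5.68 in wild-type hearts. These means lay below the signal of the middle cluster of the array, 6.67. Endothelial and endocardial markers were lower for 6 of 8, with a median difference of -0.12 and -0.10 without knockout heart 1, and cushion mesenchyme markers were higher for 6 of 8, with a median of 0.26. Without knockout heart 1 the median was 0.44 for the cushion list, 0.39 against 0.25 with it for the liver list and 0.29 against 0.18 for the macrophage list. Epicardial markers were higher for 5 of 7, with a median of 0.091, or 0.055 without knockout heart 1. Skeletal muscle markers, which bear on the muscle forms of complex IV, were higher for 5 of 10. Their list means were 6.08, 6.21 and 6.49 in knockout and 6.13, 6.12 and 6.29 in wild-type hearts, also below the middle cluster. Knockout heart 3 stood out by the embryonic myosin gene Myh3, at 7.17, against 5.39 and 5.27 in knockout hearts 1 and 2 and 5.17 to 5.26 in wild-type hearts. Of the genes in these lists, 0 passed limma's test over all clusters.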
